A study of Mus musculus with 8 samples.

Results

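The collagen and laminin genes of the mouse testis, with a few other proteins of the extracellular matrix, were compared between testes of Vrk1 mutant and wild-type mice. Members were taken by name from the array files: numbered collagen chains, numbered laminin chains, Nid1, Nid2, Fn1, Sparc, Lum and Dcn, on features that were not controls. This gave 56 genes measured by 108 probes, of 27962 gene names on the array. All 56 had a probe bright enough to be tested, among 23349 genes tested in all, and 93 of the 108 probes passed the same filter. Hspg2, also in the rule, had no probe under that name. RNA came from whole testicular cells of male mice, in 4 samples of the mutant genotype VRK1-/- and 4 of the wild-type genotype VRK1+/+, each described as a biological replicate and hybridised to 1 single-colour Agilent array. Vrk1 encodes a nuclear serine/threonine kinase, and the comparison asked how the testis transcriptome differs in its mutant. The labels give neither age nor strain nor litter, and do not describe how Vrk1 was disrupted.

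Collagens are trimers of chains wound into a triple helix, whose repeat of Gly-X-Y puts a glycine at each turn where the chains meet. Fibril-forming collagens give tissues tensile strength, whereas collagen IV assembles into the sheet of basement membranes. Laminins are cross-shaped trimers of an alpha, a beta and a gamma chain that polymerise in basement membranes and bind cell-surface integrins. In the testis a basement membrane surrounds each seminiferous tubule, is laid down by Sertoli cells and by the contractile peritubular myoid cells, and carries the spermatogonia. Between the tubules lie Leydig cells, vessels, macrophages and fibroblasts in a loose collagenous matrix.

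The helix repeat could be read directly in 3 of the 78 collagen probes, and in no probe outside the collagens among the 41174 probes of the array. They are shown because their bases encode the feature that defines the family, with the glycine codons (GGN, where N is any base) in capitals.
Col11a2: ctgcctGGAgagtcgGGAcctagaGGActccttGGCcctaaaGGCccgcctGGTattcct
Col5a1: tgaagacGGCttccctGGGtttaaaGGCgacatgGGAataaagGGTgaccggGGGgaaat
Col5a3: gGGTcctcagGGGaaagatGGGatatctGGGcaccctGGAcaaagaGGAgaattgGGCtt
The probe of Col11a2, a chain of a fibril-forming collagen of cartilage, lies at chr17:32131401-32131567 in the mm7 coordinates of the array files, and holds 6 glycine codons. The probe of Col5a1, a chain that regulates fibril diameter, lies at chr2:27994034-27996457 and holds 6. The probe of Col5a3, the alpha 3 chain of collagen V, lies at chr9:20655471-20656200 and holds 7. Each span is longer than the probe's 60 bases. Col5a3 has a second probe that behaved differently, as described with the collagens that passed the test.

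Levels are given as the log2 of a probe's signal over the 75th percentile of its array, so that 0 is the level of that percentile. Differences are mutant minus wild type on this scale. A gene passed the test at a limma adjusted p under 0.05 over all 23349 genes. Levels of different probes depend on their binding and are not compared with each other. Because whole testis was measured, more cells of a type cannot be told apart from more RNA per cell.

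The Vrk1 probe measured -3.17, -3.00, -3.00 and -2.72 on mutant arrays 1 to 4, against -0.89, -0.79, -0.63 and -0.54 on wild-type arrays 1 to 4, which is 4.78-fold lower in the mutant (difference -2.26, SE 0.15, adjusted p = 1.5e-04). The 75th percentile of signal was 928 to 1124 on the mutant and 680 to 790 on the wild-type arrays (exact permutation test, two-sided, p = 0.0286, which is the lowest value possible with 70 arrangements). Each genotype lay on a slide of its own, scanned separately, so genotype cannot be told apart from slide and scan. Replicate numbers equal the array's place on its slide. Libraries stood apart in 2 ways. Replicate 4 was the highest mutant array for 26 of the 56 members and the highest wild-type array for 26, and both at once for 22. Over 23299 genes these counts were 6611, 6758 and 3622. The mean level over 7 epididymal transcripts was also high on mutant replicates 1 and 4, at 0.60 and 0.17. It was -1.57 and -1.99 on mutant replicates 2 and 3 and -2.89 to -2.38 in wild type. Crisp1 (2.50, -2.40, -4.20 and 2.80 on mutant arrays 1 to 4), Cd52, Ltf and Rnase9 were high on both. Lcn9 (-2.31 to -2.16) and Rnase10 (-2.12 to -1.80) varied little over the mutant arrays, and Spinlw1 was 2.96 on mutant replicates 2 and 4 alike.

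Of the 56 members, 8 passed the test as higher in the mutant (14.3%) and 3 as lower (5.36%), and 45 did not pass. Among all tested genes 22.3% were higher and 13.2% lower, so both shares of the members lay below those of the array in this fit. Every mutant array lay above every wild-type array for 7 members and below for 2, where 21.9% and 15.4% of all tested genes did so. The median difference of the members was 0.26, with 37 of 56 above 0, and that of all tested genes was 0.03. The higher genes were Dcn, Sparc, Lamc1, Lama2, Col5a3, Col11a1, Col13a1 and Col28a1, and the lower ones Col2a1, Col22a1 and Col25a1. None of the collagen I, III, IV or VI chains passed in this fit, and some did under alternatives. The balance depended on processing. With normexp background correction 4 members were higher and 4 lower, where 7.996% and 11.3% of all genes were called. After scaling to the median 4 were higher and 9 lower, where 14.1% and 28.7% of all genes were called. Those settings moved the median of all genes to -0.22 and -0.18, and that of the members to -0.02 and 0.04. The counts also depended on single arrays. Without mutant replicate 1 or 3, 4 members were higher (16.5% and 15.6% of all genes in those fits), and without wild-type replicate 4, 13 were (23.2% of the members, 22.5% of all genes). The lower calls numbered 1 without mutant replicate 3, wild-type replicate 2 or wild-type replicate 3 (6.77%, 6.99% and 6.85% of all genes), 5 without wild-type replicate 1 (12.9%) and 6 without wild-type replicate 4 (15.9%). Without mutant replicates 1 and 4 together, 2 members were higher (Sparc and Col5a3) and 0 lower, where 4.61% and 0.985% of all genes were called. Without both replicate 4 arrays, a choice made after seeing the data, 12 were higher and 5 lower: the same 11 genes, with Col6a1, Col8a2, Lama4 and Lamb2 now higher and Col4a4 and Col15a1 now lower. In that fit 21.4% of the members were higher against 18.3% of all genes, and 8.93% were lower against 12.1%, so the order of the higher shares turned.

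**Figure D1:**
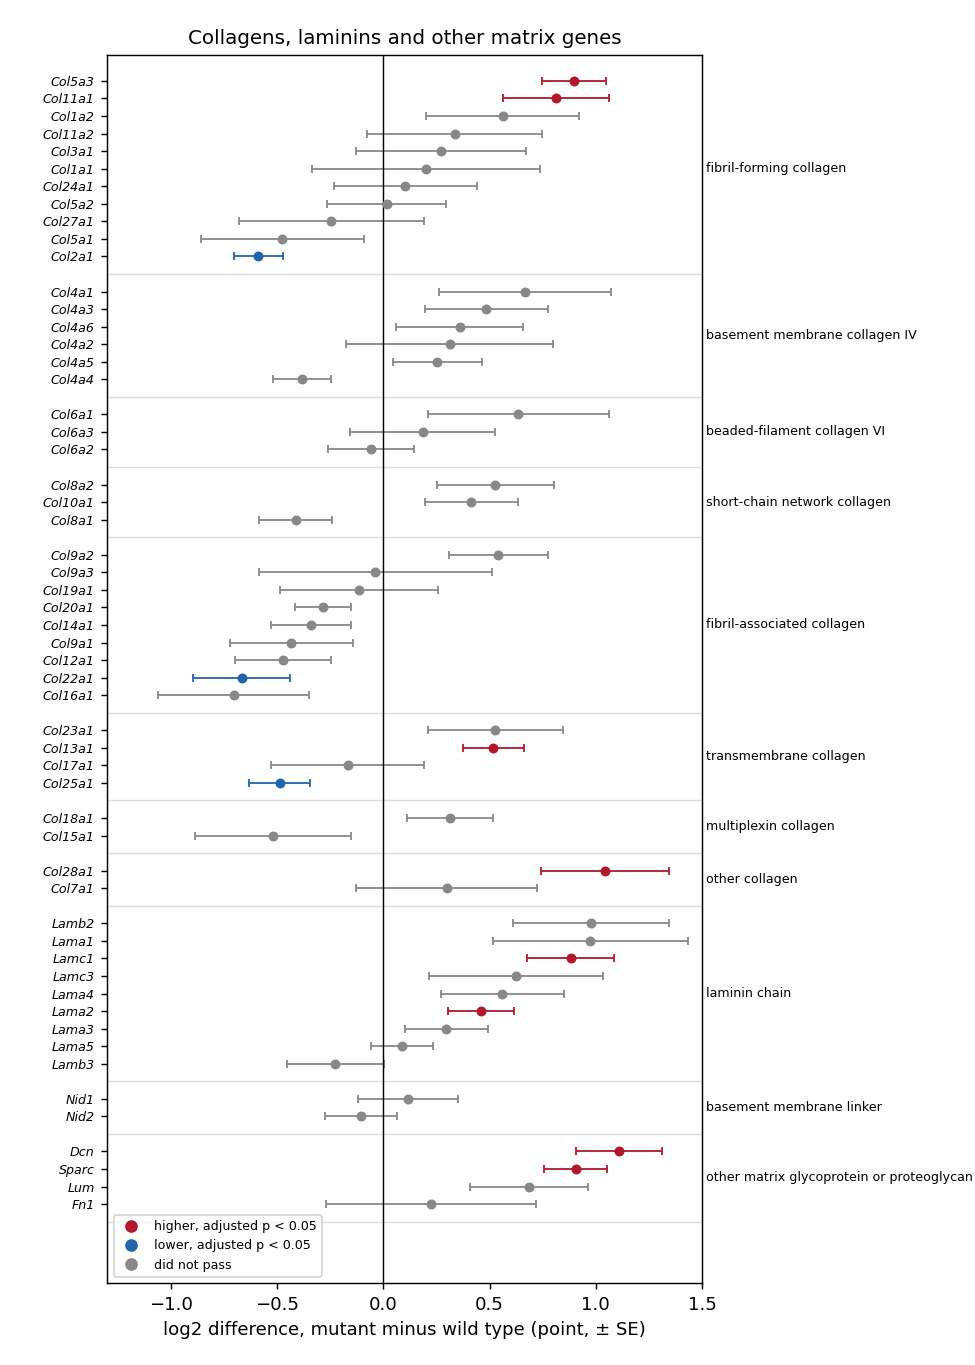
Log2 difference, mutant minus wild type, of 55 of the 56 members (points) with their standard errors (bars), on the horizontal axis, grouped by class, with 4 arrays per genotype. Red points mark the 8 members that were higher, blue the 3 that were lower and grey 44 that did not pass. All points of the 4 other matrix glycoproteins and proteoglycans and 8 of the 9 laminin chains drawn lie right of 0, and 8 of 9 fibril-associated collagens lie left of it.

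Dcn and Sparc rose, and the other genes of their class, Lum and Fn1, did not pass. Decorin (Dcn) is a small leucine-rich proteoglycan that binds collagen fibrils and limits their width. Its probe, at chr10:97080086-97080145 (mm7), measured 4.14, 3.37, 4.00 and 4.06 on the mutant arrays, against 3.16, 2.61, 2.66 and 2.69 on the wild-type arrays. Every mutant array lay above every wild-type array, although mutant replicate 2 came close to wild-type replicate 1. Dcn averaged 3.89 ± 0.35 in mutant and 2.78 ± 0.25 in wild-type testes (SD, n = 4 each), 2.16-fold higher (difference 1.11, SE 0.20, adjusted p = 0.0050). Without mutant replicates 1 and 4 its difference was 0.90 and its adjusted p 0.0703.

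Sparc encodes a secreted calcium-binding glycoprotein that binds collagen and is made by Sertoli and Leydig cells. It measured 4.49, 4.07, 4.56 and 4.21 on the mutant arrays, against 3.37, 3.48, 3.52 and 3.34 on the wild-type arrays. The groups were far apart, and the wild-type arrays lay within a narrow band. The means were 4.33 ± 0.23 in mutant and 3.43 ± 0.09 in wild-type testes (SD, n = 4 each), 1.87-fold higher (difference 0.90, SE 0.15, adjusted p = 0.00318). A second Sparc probe had a difference of 1.05 (adjusted p = 0.0074 in a fit of all 33718 probes). The Sparc call held in 21 of 21 alternative settings. Those 21, counted alike for other genes, include the series value table, whose values equal those used here and so had to give the same call.

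Lumican (Lum), another small proteoglycan of collagen fibrils whose probe lies 55.0 kb from that of Dcn, did not pass. It measured -1.93, -2.52, -2.10 and -1.58 on the mutant arrays, against -2.57, -3.31, -2.90 and -2.10 on the wild-type arrays (difference 0.69, adjusted p = 0.0776). The groups overlapped through wild-type replicate 4. Fibronectin (Fn1), an adhesive glycoprotein bound by integrins, measured -4.35, -3.26, -2.58 and -1.82 on the mutant arrays, against -3.73, -3.47, -3.31 and -2.40 on the wild-type arrays (difference 0.23, adjusted p = 0.735). The mutant values spanned the whole wild-type range. A second Fn1 probe, bright enough on all 8 arrays, gave -0.08 (adjusted p = 0.775 over all probes). The third was dim, not well above background, on all 4 wild-type arrays, and so passed the filter only through the mutant arrays. It was at least 1.73-fold higher in the mutant, the mutant mean being set against the detection limit or the dim signal, whichever was higher.

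Of the 10 laminin chains, 2 passed the test, both as higher, and 9 had a difference above 0. The class median was 0.51. Among all tested genes 52.1% lay above 0, and 72.3% of those with a mean level at or below -2. Lamc1 encodes gamma 1, the gamma chain of most laminins. Its probe measured 0.39, -0.09, 0.16 and 0.63 on the mutant arrays, against -0.51, -0.92, -0.80 and -0.21 on the wild-type arrays, without overlap. It averaged 0.27 ± 0.31 in mutant and -0.61 ± 0.32 in wild-type testes (SD, n = 4 each), 1.84-fold higher (difference 0.88, SE 0.21, adjusted p = 0.0120). Without mutant replicates 1 and 4 its difference was 0.65 and its adjusted p 0.115. Lama2 encodes alpha 2, a chain known from muscle basement membranes. It measured 0.25, 0.10, 0.07 and 0.49 on the mutant arrays, against -0.47, -0.31, -0.18 and 0.02 on the wild-type arrays. The lowest mutant array stood just above the highest wild-type array. The difference was 0.46 (SE 0.16, 1.37-fold, adjusted p = 0.0445), and the second Lama2 probe gave 0.37 (adjusted p = 0.341 over all probes). The Lama2 call ended in 7 of the 8 fits that left out 1 array, with differences of 0.37 to 0.54. It held without wild-type replicate 4. Normexp (0.35), median scaling (0.24), quantile normalisation (0.46) and the mean of its probes (0.42) also ended it.

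Lamb2, for the beta 2 chain, had a difference as large as that of Lamc1 but a wider spread. It measured 2.13, 1.19, 1.62 and 2.82 on the mutant arrays, against 0.81, 0.58, 0.68 and 1.78 on the wild-type arrays (difference 0.98, 1.97-fold, adjusted p = 0.0632). Wild-type replicate 4 lay above 2 of the mutant arrays, and without both replicate 4 arrays Lamb2 passed. Lama1, for the alpha 1 chain of early basement membranes, measured -1.88, -2.89, -2.61 and -0.63 on the mutant arrays, against -3.32, -3.10, -3.27 and -2.22 on the wild-type arrays (difference 0.97, adjusted p = 0.120). Mutant replicate 4 was far above the other mutant arrays. Lama4, for an alpha chain of vessel walls, measured -2.13, -2.68, -2.55 and -1.65 on the mutant arrays, against -3.08, -3.06, -3.03 and -2.08 on the wild-type arrays (difference 0.56, adjusted p = 0.148). The other 3 wild-type arrays were nearly equal, and wild-type replicate 4 stood apart. Of its other probes, 2 gave 0.72 (adjusted p = 0.0916 over all probes) and 0.36 (adjusted p = 0.373). The last was dim on every wild-type array, passed the filter only through the mutant arrays and was at least 1.86-fold higher. Lama5, for the alpha 5 chain, measured -2.45, -2.43, -2.90 and -2.43 on the mutant arrays, against -2.51, -2.65, -2.74 and -2.66 on the wild-type arrays (difference 0.09, adjusted p = 0.653).

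Lama3 and Lamb3, for chains of epithelial basement membranes, had differences of 0.30 (adjusted p = 0.249) and -0.23 (adjusted p = 0.447). A second Lama3 probe had a difference of 0.65 (adjusted p = 0.0133 over all probes). Lamc3 had a difference of 0.62 (adjusted p = 0.245), and its other probes gave -0.13 (adjusted p = 0.570 over all probes) and 0.82 (adjusted p = 0.0657). Laminin beta 1 carries the name Lamb1-1 on this array and so lies outside the rule. It averaged -0.84 ± 0.42 in mutant and -1.63 ± 0.28 in wild-type testes (SD, n = 4 each; difference 0.79, adjusted p = 0.0250). The nidogens link laminin to collagen IV, and neither passed. Nid1 measured 0.21, -0.05, 0.20 and 0.95 on the mutant arrays, against 0.03, 0.13, 0.04 and 0.67 on the wild-type arrays (difference 0.11, adjusted p = 0.716). Nid2 measured -0.52, -0.26, -0.32 and -0.35 on the mutant arrays, against -0.69, -0.26, -0.13 and 0.06 on the wild-type arrays (difference -0.11, adjusted p = 0.644). The groups overlapped for both.

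**Figure D2:**
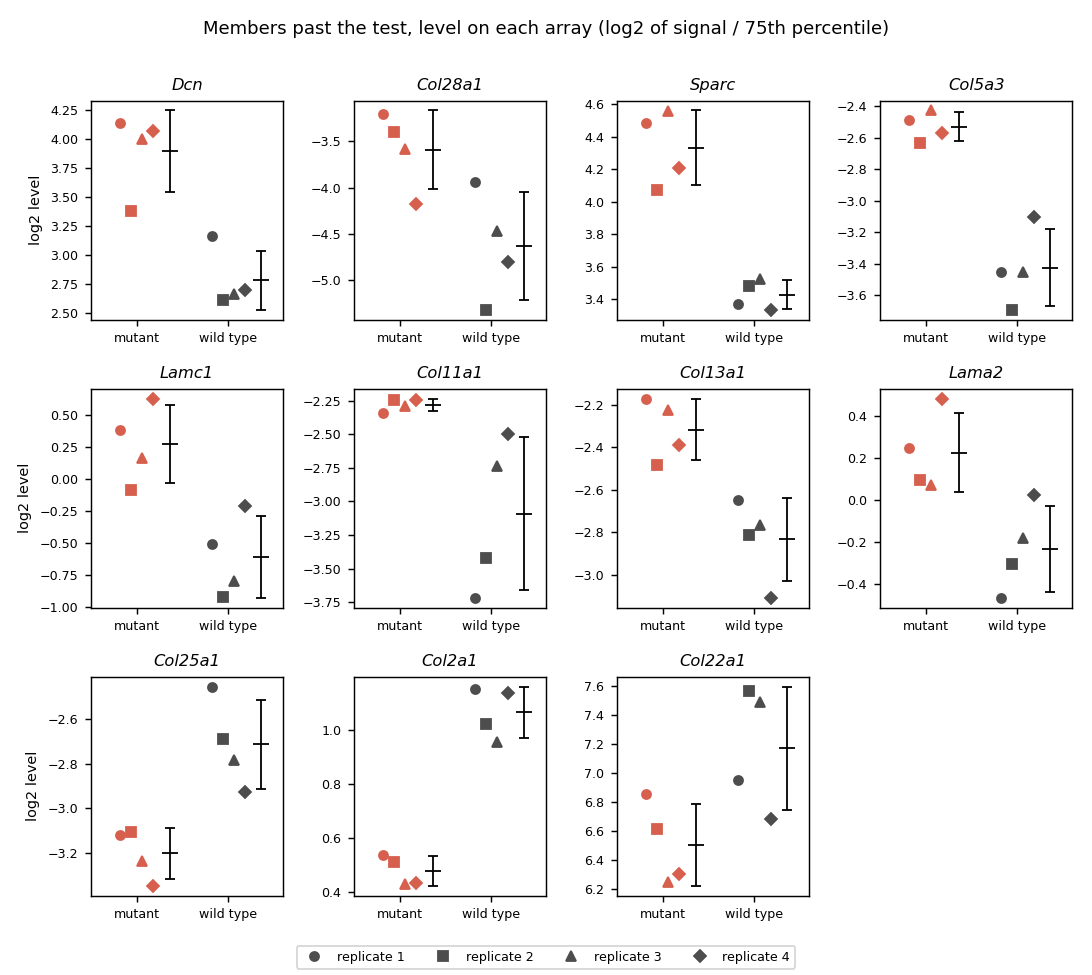
Level of the 11 members that passed the test on each array (vertical axes, log2 of signal over the array's 75th percentile, a separate scale per gene), with mutant arrays in red at the left and wild-type arrays in dark grey at the right of each panel. Symbols give the replicate, and the bars the mean ± SD of 4 arrays. The groups overlap for Col28a1 and Col22a1 and do not for the other 9 genes.

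Among the 40 collagens, 4 passed as higher and 3 as lower, with a median difference of 0.19. Of the 11 fibril-forming chains, Col5a3 and Col11a1 rose and Col2a1 fell. Col5a3 measured -2.48, -2.63, -2.43 and -2.57 on the mutant arrays, against -3.45, -3.69, -3.46 and -3.10 on the wild-type arrays. All mutant arrays lay within a narrow band above the wild-type arrays, with means of -2.53 ± 0.09 in mutant and -3.43 ± 0.24 in wild type (SD, n = 4 each; difference 0.90, SE 0.15, 1.86-fold, adjusted p = 0.00364). The Col5a3 probe that reads the helix repeat, printed above, gave 0.16 (adjusted p = 0.646 over all probes). Normexp background correction took the difference to 0.28 (adjusted p = 0.207). Col11a1, which encodes a chain found within cartilage fibrils, measured -2.34, -2.24, -2.29 and -2.25 on the mutant arrays, against -3.72, -3.42, -2.73 and -2.50 on the wild-type arrays (difference 0.81, SE 0.25, adjusted p = 0.0324). The spread lay almost wholly among the wild-type arrays. The Col11a1 call held in 9 of 21 alternatives, and leaving out any mutant array, or wild-type replicate 1 or 2, ended it (differences of 0.60 to 0.83). Normexp took the difference to 0.24, and median scaling, quantile normalisation and cyclic loess to between 0.58 and 0.59, without a call.

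Col2a1 encodes the collagen II chain of cartilage. It measured 0.54, 0.51, 0.43 and 0.44 on the mutant arrays, against 1.15, 1.02, 0.95 and 1.14 on the wild-type arrays. The groups lay well apart, with means of 0.48 ± 0.06 in mutant and 1.07 ± 0.09 in wild type (SD, n = 4 each; difference -0.59, SE 0.12, 1.50-fold lower, adjusted p = 0.00675). Of its other probes, 1 gave -0.50 (adjusted p = 0.0185 over all probes) and 1 gave 0.39 (adjusted p = 0.176), so the probes of this gene differed in sign. The mean of its probes gave -0.24 (adjusted p = 0.125), and without mutant replicates 1 and 4 the difference was -0.60 (adjusted p = 0.0562).

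The major interstitial collagens did not pass. Col1a1, for the alpha 1 chain of collagen I, measured 0.72, -0.29, -0.18 and 1.47 on the mutant arrays, against -0.10, -0.57, -0.18 and 1.77 on the wild-type arrays (difference 0.20, adjusted p = 0.787). Col1a2, for the alpha 2 chain, measured 3.43, 2.80, 3.15 and 4.01 on the mutant arrays, against 2.75, 2.14, 2.50 and 3.77 on the wild-type arrays (difference 0.56, adjusted p = 0.236). Col3a1, for collagen III of pliable tissues, measured 1.15, 0.37, 0.67 and 1.66 on the mutant arrays, against 0.70, -0.01, 0.28 and 1.80 on the wild-type arrays (difference 0.27, adjusted p = 0.606). All 3 genes shared 1 order of arrays within each genotype, replicate 4 highest, then replicate 1, with replicates 2 and 3 below, save that replicates 1 and 3 were close for wild-type Col1a1.

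The promoters of Col1a2 and Col3a1 are shown because these genes followed the same order of arrays. The 250 bases before each start come from RefSeq (GRCm38.p6, both on the plus strand), with the CCAAT box (CCAAT), the GC box (GGGCGG) and the TATA-like motif (TATAAA), searched on both strands, in capitals. None of the matches shown overlap.
Col1a2, chr6:4505368-4505617: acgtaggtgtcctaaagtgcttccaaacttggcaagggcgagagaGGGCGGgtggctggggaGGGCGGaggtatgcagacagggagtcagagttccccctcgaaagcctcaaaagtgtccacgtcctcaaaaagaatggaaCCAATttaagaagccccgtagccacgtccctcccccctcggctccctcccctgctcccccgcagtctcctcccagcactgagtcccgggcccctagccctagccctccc
Col3a1, chr1:45311288-45311537: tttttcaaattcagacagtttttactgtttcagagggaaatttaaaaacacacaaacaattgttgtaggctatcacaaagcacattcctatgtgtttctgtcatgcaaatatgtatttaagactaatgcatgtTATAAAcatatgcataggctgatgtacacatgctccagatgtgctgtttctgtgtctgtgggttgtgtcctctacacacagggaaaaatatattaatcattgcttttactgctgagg
The Col1a2 window held a CCAAT 109 bases and a GGGCGG 205 and 188 bases before the start, and was 62.0% G and C. The Col3a1 window held a TATAAA 117 bases before the start and was 35.2% G and C. No motif of the 3 was common to both windows. Of 32851 RefSeq promoter windows of this length, 33.85% held CCAAT, 32.74% GGGCGG and 12.37% TATAAA. Among 42 windows of the 38 members that matched, 13 held CCAAT (30.95%), 21 held GGGCGG and 5 held TATAAA (11.9%).

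The remaining fibril-forming chains did not pass, with differences of 0.34 for Col11a2, 0.10 for Col24a1, 0.01 for Col5a2, -0.24 for Col27a1 and -0.48 for Col5a1. Their helix probes differed from the chosen ones for Col11a2 (-0.29, adjusted p = 0.149 over all probes). The Col5a1 helix probe gave -0.55 and passed over all probes (adjusted p = 0.0178). A second Col27a1 probe also passed as lower (-0.57, adjusted p = 0.0343), while the last gave 0.66 (adjusted p = 0.433).

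Of the 6 collagen IV chains none passed, and 5 had a difference above 0. Col4a1 and Col4a2 form the ubiquitous trimer and are transcribed away from each other, with RefSeq starts 21 bases apart. Col4a1 measured -1.02, -1.04, -0.84 and 0.36 on the mutant arrays, against -2.07, -1.50, -1.30 and -0.33 on the wild-type arrays (difference 0.67, adjusted p = 0.214). Col4a2 measured -0.66, -1.03, -0.94 and 0.73 on the mutant arrays, against -1.49, -1.11, -1.04 and 0.50 on the wild-type arrays (difference 0.31, adjusted p = 0.629). Both genes were highest on replicate 4 of each genotype. The paired chains Col4a3 and Col4a4, known from kidney and testis basement membranes, differed in sign, with 0.48 (adjusted p = 0.207) and -0.38 (adjusted p = 0.0508). Col4a4 measured -0.77, -0.71, -0.61 and -0.38 on the mutant arrays, against -0.39, -0.25, -0.17 and -0.13 on the wild-type arrays, with only the ends of the ranges touching. Another Col4a4 probe was higher in the mutant (0.68, adjusted p = 0.0337 over all probes). Col4a5 had a difference of 0.25 (adjusted p = 0.354) and Col4a6 of 0.36 (adjusted p = 0.356), and of its other probes 1 passed as higher (0.81, adjusted p = 0.0095) and 1 did not (0.31, adjusted p = 0.358).

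The collagen VI chains form beaded filaments around cells, and none of the 3 passed. Col6a1 measured -1.21, -1.96, -1.80 and -0.29 on the mutant arrays, against -2.26, -2.37, -2.29 and -0.87 on the wild-type arrays (difference 0.63, adjusted p = 0.258). Apart from wild-type replicate 4, every wild-type array lay below every mutant array. Col6a2, whose probe lies 112 kb from that of Col6a1, had a difference of -0.06 (adjusted p = 0.834), and Col6a3 of 0.18 (adjusted p = 0.685). A second Col6a2 probe gave 0.45 (adjusted p = 0.305 over all probes). The short-chain network collagens gave 0.53 for Col8a2 (adjusted p = 0.156), -0.41 for Col8a1 (adjusted p = 0.0839) and 0.41 for Col10a1 (adjusted p = 0.158). Col8a1 measured -0.04, -0.03, -0.28 and -0.59 on the mutant arrays, against 0.31, 0.14, 0.37 and -0.09 on the wild-type arrays. Col10a1, the collagen of growth plate cartilage, was well above background on all mutant and no wild-type arrays, so it passed the filter only through the mutant arrays. Its means gave a bound of at least 1.33-fold, but the groups overlapped. Wild-type replicate 2 (-5.14) lay above every mutant array (-5.40 to -5.24), and wild-type replicates 1 and 3 were at the lower signal limit (-6.12). Normexp background correction turned the sign of its difference.

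**Figure D3:**
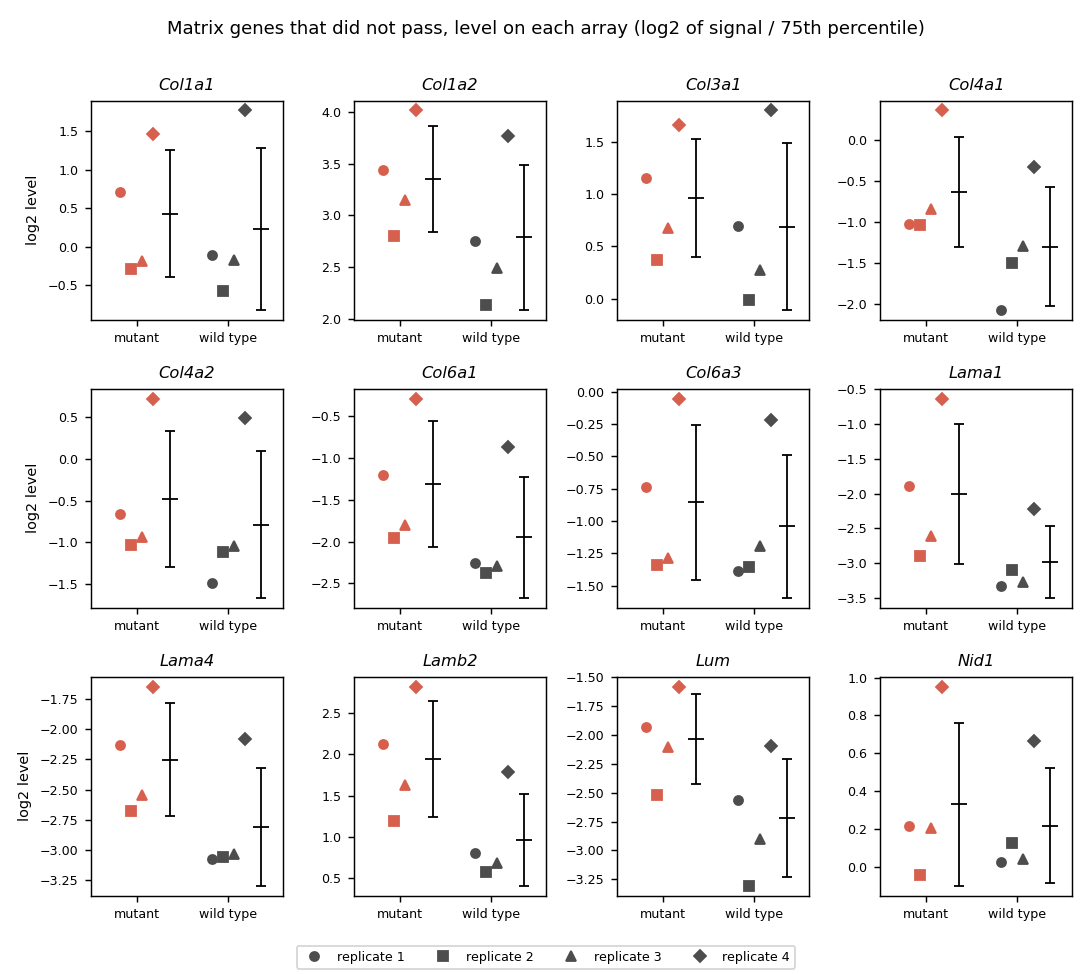
Level of 12 members that did not pass the test, picked after their values were seen, on each array (vertical axes, log2 of signal over the array's 75th percentile, a separate scale per gene), with mutant arrays in red at the left and wild-type arrays in dark grey at the right. Bars give the mean ± SD of 4 arrays. The diamonds, replicate 4, are the highest points of both genotypes in every panel.

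Fibril-associated collagens, which decorate fibrils and link them to other matrix, had a median difference of -0.34, and 1 of 9 lay above 0. Among all tested genes 52.1% had a difference above 0, and 27.3% of those with a mean level above 0, where Col22a1, Col16a1 and Col20a1 lay. Col22a1 and Col16a1 had mean levels above 4, where all genes had a median difference of -0.44 and 40.8% were lower. Col22a1, a collagen of tissue junctions, was the member of this class that passed. It measured 6.85, 6.61, 6.25 and 6.30 on the mutant arrays, against 6.95, 7.56, 7.49 and 6.68 on the wild-type arrays (difference -0.67, SE 0.23, 1.59-fold lower, adjusted p = 0.0469). The groups overlapped, and its second probe gave 0.23 (adjusted p = 0.296 over all probes). Its call held in 10 of 21 alternatives and ended without mutant replicate 2, 3 or 4 or wild-type replicate 2 or 3 (differences of -0.70 to -0.54). Quantile normalisation took the difference to -0.27 and cyclic loess to -0.14. Col16a1 measured 3.97, 3.92, 4.47 and 4.71 on the mutant arrays, against 3.85, 5.36, 5.50 and 5.20 on the wild-type arrays (difference -0.71, adjusted p = 0.140). Wild-type replicate 1 was below all the mutant arrays and the other wild-type arrays above them. Col12a1 (-0.47, adjusted p = 0.122), Col9a1 (-0.43, adjusted p = 0.257), Col14a1 (-0.34, adjusted p = 0.179) and Col20a1 (-0.28, adjusted p = 0.117) did not pass. The single positive difference was that of Col9a2 (0.54, adjusted p = 0.0942).

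The transmembrane collagens are anchored in the cell membrane and shed their ectodomains, and they moved in both directions. Col13a1 measured -2.17, -2.48, -2.22 and -2.39 on the mutant arrays, against -2.65, -2.81, -2.77 and -3.11 on the wild-type arrays (difference 0.52, SE 0.15, 1.43-fold higher, adjusted p = 0.0231). Its groups did not overlap, but the call ended without mutant replicate 1 or 3 or wild-type replicate 2 (differences of 0.47 to 0.53). Normexp (0.18), median scaling (0.30), quantile normalisation (0.30) and cyclic loess (0.31) also ended it. Col25a1, known from neurons and motor innervation, measured -3.12, -3.10, -3.23 and -3.35 on the mutant arrays, against -2.45, -2.69, -2.78 and -2.93 on the wild-type arrays (difference -0.49, SE 0.14, 1.40-fold lower, adjusted p = 0.0259). Every mutant array lay below every wild-type array, and the call ended without mutant replicate 3 or 4 or wild-type replicate 2 or 3 (differences of -0.51 to -0.44). Col23a1 (0.53, adjusted p = 0.213) and Col17a1 (-0.17, adjusted p = 0.730) did not pass.

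Col28a1, a collagen of peripheral nerve, measured -3.20, -3.40, -3.58 and -4.18 on the mutant arrays, against -3.94, -5.32, -4.47 and -4.81 on the wild-type arrays (difference 1.04, SE 0.30, 2.06-fold higher, adjusted p = 0.0263). Mutant replicate 4 lay below wild-type replicate 1. The call held in 11 of 21 alternatives and ended without mutant replicate 1, 2 or 3 or wild-type replicate 2 (differences of 0.82 to 1.04), and normexp took the difference to 0.07. Median scaling (0.83), quantile normalisation (0.71) and cyclic loess (0.77) also ended it. Col7a1, the anchoring fibril collagen, had a difference of 0.30 (adjusted p = 0.597). Of the multiplexins, whose ends release anti-angiogenic fragments, Col18a1 measured 2.06, 1.42, 1.72 and 2.27 on the mutant arrays, against 1.37, 1.43, 1.52 and 1.88 on the wild-type arrays (difference 0.31, adjusted p = 0.241). Col15a1 gave -0.52 (adjusted p = 0.280).

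Over the array as a whole the difference depended on brightness, which bears on these shares. Of the 23 members with a mean level at or below -2, 4 were higher and 1 lower, with a median of 0.34. Of all 9862 genes in that range 30.3% were higher and 4.91% lower, with a median of 0.33. Of the 19 members between -2 and 0, 2 were higher and 0 lower, with a median of 0.30, where all 5149 genes gave 23.1%, 9.09% and 0.04. Of the 14 members above 0, 2 were higher and 2 lower, with a median of 0.16, where all 8334 genes gave 12.3%, 25.7% and -0.30. At the level of single probes, 14 of the 93 tested member probes passed as higher and 5 as lower, against 21.2% and 10.8% of all 33718 probes. Of those 14, 2 were dim on every wild-type array. Of the 28 members with several tested probes, 9 had probes of both signs and 0 had probes called both ways.

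**Figure D4:**
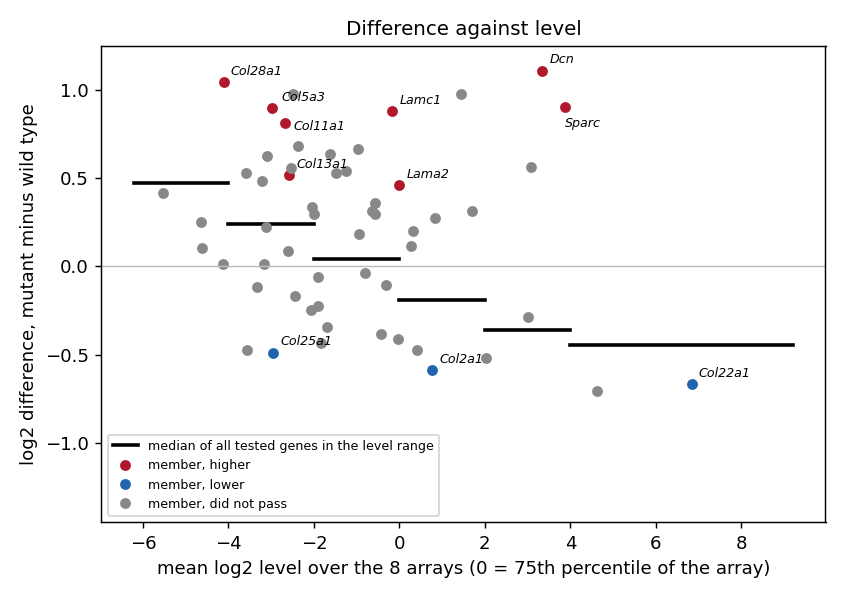
Log2 difference, mutant minus wild type (vertical axis), against the mean log2 level over the 8 arrays (horizontal axis) for each member. Black bars give the median difference of all tested genes in each range of level, which falls from left to right. Dcn and Sparc lie far above the bars of their ranges.

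Genes that act on or with this matrix were examined as lists. Of 22 matrix receptors, 10 passed as higher and 0 as lower, with a median of 0.42, led by Itga6 (1.68, adjusted p = 0.00148), the integrin alpha 6 chain that binds laminin, and Itgb5 (0.99, adjusted p = 0.00672), an integrin beta chain. Of 22 tested genes of collagen folding, modification and cross-linking, 9 were higher and 0 lower, with a median of 0.55. Of those 9, 2 (P4ha3 and Loxl3) were dim on every wild-type array and entered the test only through the mutant arrays. Among them P4ha1, for a prolyl 4-hydroxylase subunit that stabilises the helix, had a difference of 0.94 (adjusted p = 0.00337). P4ha3, another such subunit, was at the lower signal limit on every wild-type array and at least 1.78-fold higher. Of 15 tested genes of matrix turnover, 12 were higher and 0 lower, with a median of 0.77, led by Ctsk (1.23, adjusted p = 0.00225), a collagen-degrading cathepsin, and Mmp9 (0.81, adjusted p = 0.00368), a gelatinase. Of 30 tested genes of other matrix proteins, 10 were higher and 2 lower, with a median of 0.43, led by Thbs2 (1.35, adjusted p = 8.07e-04), a thrombospondin, and Fbln5 (1.33, adjusted p = 0.00154), a fibulin of elastic fibres. The 2 lower genes were Fbn2 (-0.89, adjusted p = 0.00686), a fibrillin, and Thbs4 (-0.91, adjusted p = 0.0133), a thrombospondin. These shares stand beside the same 22.3% and 13.2% of all genes, and no list was tested as a set.

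Markers of the cell types that make or border the matrix were examined as lists, beside 22.3% higher and 13.2% lower among all genes. The endothelial share of higher genes, 22.2%, was near that of all genes. Summed signals of the 2 genotypes overlapped for the myoid, endothelial and germ cell lists. Each sum mostly follows the brightest probes of its list. Mean log2 levels, which weigh all genes alike, overlapped for the same lists and for the fibroblast list. The part of these cell types in the results was not tested. Of 14 Sertoli genes, 12 were higher and 0 lower (median 0.92), led by Wt1 (1.12) and Aard (1.19), and their summed signal was 148 to 225 times the 75th percentile on the mutant and 69.97 to 105 on the wild-type arrays. Of 10 peritubular myoid genes, 3 were higher and 0 lower (median 0.47), led by Myl9 (0.80) and Mylk (0.56), with sums of 55.8 to 74.9 in mutant and 47.6 to 57.3 in wild type. Of these 10 genes, 6 had a difference above 0. Acta2 (-0.31), Actg2 (-0.21), Tagln (-0.05) and Cnn1 (-0.03) lay below 0 and did not pass. Other tested Acta2 probes gave 0.54, 0.14 and -0.24, and none passed. Of 10 fibroblast genes, 4 were higher and 0 lower (median 0.44), led by Pdgfra (1.32) and Tcf21 (1.06), with sums of 25.8 to 39.4 in mutant and 18.3 to 25.5 in wild type. Most of this sum came from the probe of Gsn, at 4.52 to 5.14 in mutant and 3.96 to 4.53 in wild type. The mean level of the 10 genes overlapped, at -1.75 to -1.12 in mutant and -2.02 to -1.67 in wild type. Of these 10 genes, 8 had a difference above 0. Pi16 (-0.32) and Gli1 (-0.24) lay below 0 and did not pass, although every mutant array of Gli1 lay below every wild-type array. Of 7 tested Leydig genes, 4 were higher (median 0.97), led by Hsd3b1 (1.50) and Hsd3b6 (1.40), with sums of 146 to 245 in mutant and 75.9 to 134 in wild type. Lhcgr, also on that list, did not pass the filter. Of 9 endothelial genes, 2 were higher, Cdh5 (0.99) and Pecam1 (0.69), with sums of 3.40 to 6.06 in mutant and 2.73 to 5.10 in wild type. Of 10 macrophage genes, 8 were higher (median 0.94), led by Lyzs (1.36) and Mrc1 (0.74), with sums of 12.6 to 34.0 in mutant and 9.19 to 10.2 in wild type. Of 10 germ cell genes, 0 were higher and 5 lower (median -0.43), led by Acr (-0.66) and Hspa2 (-0.67), with sums of 1181 to 1670 in mutant and 1478 to 2006 in wild type. These genes were bright, with mean levels of 1.31 to 9.17 and a median level of 3.78. All genes at levels from 2 to 4 had a median difference of -0.36, and 30.8% were lower. Above 4 the values were -0.44 and 40.8%, so the germ cell median was near that of all genes as bright. Germ cell, Sertoli and Leydig markers, which define the testis, were thus present on every array. Of 7 tested epididymal genes, 4 were higher, among them Rnase9 (1.60) and Spinlw1 (0.96), with sums of 9.52 to 38.1 in mutant and 4.07 to 8.34 in wild type. Lcn5, Lcn8, Adam7 and Defb42 of that list did not pass the filter.

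**Figure D5:**
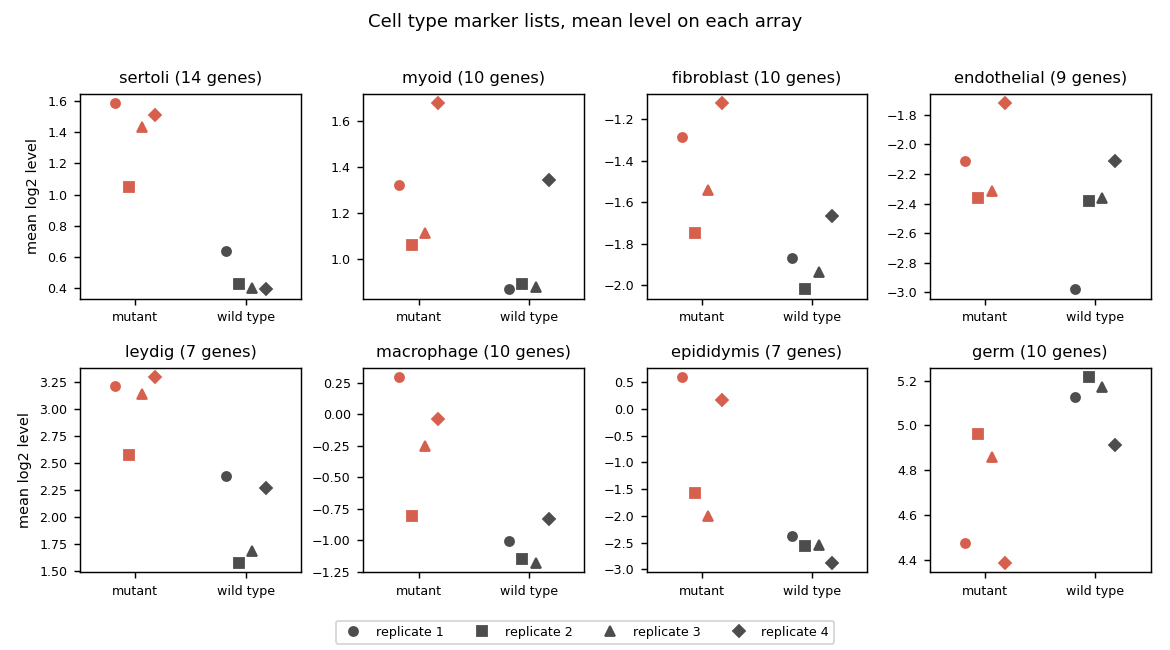
Mean log2 level of each cell type marker list on each array (vertical axes, a separate scale per list), mutant arrays in red at the left and wild-type arrays in dark grey at the right. Symbols give the replicate. The Sertoli points of the 2 genotypes do not overlap, the myoid and endothelial points are highest on replicate 4 of each genotype, and the epididymal points are high on mutant replicates 1 and 4.

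Mean levels of the myoid, fibroblast and endothelial markers were highest on replicate 4 of each genotype, as were Col1a1, Col1a2, Col3a1, Col4a1, Col4a2 and Col6a1. The mean myoid level was 1.32, 1.06, 1.11 and 1.68 on mutant arrays 1 to 4, against 0.87, 0.89, 0.88 and 1.34 on wild-type arrays 1 to 4. The Sertoli level was 1.59, 1.05, 1.43 and 1.51 on the mutant arrays, against 0.64, 0.42, 0.40 and 0.39 on the wild-type arrays. Lamc1 and Lama2, which passed the test, were also highest on replicate 4 of each genotype. Dcn and Sparc, which passed as well, were not highest on replicate 4 of either.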

How the data were processed

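Agilent Feature Extraction 9.5.3.1 produced the signals, per the submitters' processing notes. The deposited intensity values are processed signals, background-subtracted and detrended within each array per the file headers, and some were negative. The series value table held the same intensity values for all 45018 features (relative tolerance 1e-04). Each array's signals were scaled to its 75th percentile over features other than controls, values below a floor of 0.01437 of that percentile were set to the floor, and log2 was taken. Outlier spots were dropped and a probe's spots averaged. A probe was kept if well above background on 4 or more of 8 arrays with 3 values per genotype (33718 of 41174), and each gene name took its probe with the highest mean. The test was that of limma 3.58.1 under R 4.3.3 (lmFit, eBayes, 8 arrays, genotype as the only term), adjusted by Benjamini-Hochberg over 23349 genes. A second fit over all kept probes gave the other probes' values. The procedure was tested on simulated data.

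Members, lists and cell type markers were chosen with earlier results of these data known. Values on every array are given for the core matrix genes, and for the member of each class with the smallest p and the called member with the largest difference; of each list the 2 genes with the smallest p are named, and other members were named freely. Fbn2, Thbs4, Loxl3, Lamb1-1, other list genes named beyond that rule and the members shown with values beyond it were picked after their values were seen. Replicate numbers were not taken as pairs. Of the members, 1 enters the counts and medians, but its own values are not reported here. The labels do not say which animals the replicates came from, so p-values measure only the spread between these samples. The number of arrays limits the precision. Alternatives covered background correction, scaling, filters, probe choice, weights and left-out arrays.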

Additional observations from a re-analysis of the deposited data

Results flagged for a closer look

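Single arrays stood far from the other 3 of their genotype in 13 of 114 groups of 4 arrays by Dixon's criterion, which chance meets in about 5% of groups. Replicate 4 was the array in 11 of the 13. On mutant replicate 4, Col4a1 stood high at 0.3646 (next -0.84), whereas Col11a2 (-2.649), Col24a1 (-5.28) and Col7a1 (-0.9458) stood low. On wild-type replicate 4, Nid1 (0.6671), Col6a1 (-0.8685), Col6a3 (-0.2195) and Lama4 (-2.081) stood high, and Col20a1 (2.968) and Col7a1 (-2.18) stood low. Col7a1 was thus low on replicate 4 of both genotypes. The share of features well above background was highest on mutant replicate 4, at 86.45%. The other 2 were Lama5, low on mutant replicate 3 (-2.901), and Dcn, high on wild-type replicate 1 (3.159). Values of genes are log2 levels relative to the array's 75th percentile.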

How the results depend on the processing

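A slide term could not be fitted, since slide and genotype coincide, and levels rest on 4 arrays per genotype. Dim probes have little signal over background, which limits members at low levels. Members higher and lower in the mutant numbered 8 and 3 as reported, with a median difference of 0.26. They numbered 4 and 4 with normexp (median -0.023), 4 and 9 with median scaling (median 0.045), 4 and 4 with quantile normalisation (median 0.15), 5 and 3 with cyclic loess, 9 and 1 with the mean of probes, and 17 and 15 with array weights. Leaving out 1 array gave 4 to 13 higher and 1 to 6 lower, with medians of 0.14 to 0.34. Without mutant replicates 1 and 4 they were 2 and 0 (median 0.027), and without both replicate 4 arrays 12 and 5 (median 0.16). With the replicate number as a block, 18 were higher and 7 lower, 32.1% and 12.5% of the members, where 27.6% and 19.7% of all genes were called. Col1a2, Col4a1, Col4a3, Col6a1, Lama1, Lamb2 and Lum were among the higher and Col4a4 among the lower genes of that fit. With array weights 30.4% of the members and 29.1% of all genes were higher. Same-numbered arrays had correlated deviations of 0.28, 0.24, 0.08 and 0.59, and each mutant array correlated best with its own number, a hint from the data and not from the design. The counts with no filter were 6 and 3, with a filter on all 8 arrays 8 and 4, and with probes as features 8 and 2, and the series value table gave the reported counts.

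Over all genes, 5197 were higher and 3093 lower as reported, 1867 and 2650 with normexp, 3292 and 6708 with median scaling, 3463 and 2406 with quantile normalisation, 3947 and 2006 with cyclic loess, 6803 and 6419 with array weights, and 1076 and 230 without mutant replicates 1 and 4.

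Of 1154 single-gene values under the alternatives, 954 kept direction and side of the threshold, 73 came to pass it, 63 no longer did, and 64 changed sign. The values kept include those of the series value table, which were the same by construction. None of the 11 members that passed changed sign. The cause of the changes was not tested. Among the other members, the differences that changed sign took these values. With normexp background correction it was -0.43 for Col10a1, -0.032 for Col11a2, -0.51 for Col24a1, -0.015 for Col4a3, -0.40 for Col4a5, -0.42 for Col5a2, -0.19 for Col8a2, -0.18 for Fn1 and -0.30 for Lama5. With the mean of a gene's probes it was 0.22 for Col19a1, 0.15 for Col4a4 and 0.20 for Col6a2. With median scaling it was -0.019 for Col1a1, -0.11 for Col24a1, -0.20 for Col5a2, -0.033 for Col6a3, -0.13 for Lama5 and -0.10 for Nid1. Without mutant replicates 1 and 4 it was -0.46 for Col1a1, -0.17 for Col3a1, -0.20 for Col4a2, -0.015 for Col4a5, -0.20 for Col5a2, -0.27 for Col6a3, -0.025 for Lama5 and -0.14 for Nid1. With quantile normalisation it was -0.34 for Col24a1, -0.21 for Col4a5, -0.37 for Col5a2, -0.034 for Fn1 and -0.13 for Lama5. With cyclic loess it was -0.13 for Col24a1, -0.25 for Col5a2, -0.046 for Fn1 and -0.12 for Lama5. With array weights it was -0.11 for Col24a1, -0.078 for Col7a1 and -0.0063 for Lama5. Without both replicate 4 arrays it was -0.015 for Col7a1. With probes well above background on all 8 arrays it was -0.13 for Lamc3. Over fits that left out 1 array it ran from -0.086 to 0.60 for Col11a2, -0.43 to 0.081 for Col17a1, -0.41 to 0.15 for Col19a1, -0.15 to 0.71 for Col1a1, -0.21 to 0.34 for Col24a1, -0.69 to 0.0016 for Col27a1, -0.090 to 0.74 for Col4a2, -0.19 to 0.25 for Col5a2, -0.23 to 0.051 for Col6a2, -0.083 to 0.46 for Col6a3, -0.19 to 0.51 for Col7a1, -0.62 to 0.28 for Col9a3, -0.17 to 0.67 for Fn1 and -0.093 to 0.27 for Nid1.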
